A study of Mus musculus with 6 samples.

Results

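Adipokines are proteins that white adipocytes secrete into the blood, and batokines are the corresponding products of brown and beige adipocytes. The 8 genes described here are Adipoq, Lep, Retn, Cfd, Nampt, C1qtnf9, Nrg4 and Metrnl. They were taken by gene symbol from the 23997 rows of the deposited expression table, and all 8 were present and passed the filter on low values, among 12818 genes tested. The tissue was inguinal white adipose tissue (iWAT), a subcutaneous mouse fat pad in which cold brings out heat-producing beige cells.

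Expression was compared between 3 libraries of Atf4AKO mice and 3 libraries of Atf4WT mice. Both genotypes carried floxed Atf4. Atf4AKO mice also carried AdipoqCre, which deletes the gene in adipocytes, and Atf4WT mice were Cre-negative, so Cre itself and loss of Atf4 cannot be told apart. All mice were moved from 22 °C to 5 °C for 12 h, and there was no warm group, so the values compare genotypes in the cold and say nothing of the response to cold. Cre was driven by the regulatory DNA of Adipoq, which is itself one of the 8 genes, and the Cre line is not named in the sources used here. Age, sex, litter and the number of animals behind a library are not given either, so any p-value reflects the variation among these 6 libraries, which may be technical in part. The targeted gene was at 258, 323 and 317 FPKM in Atf4WT and at 152, 140.2 and 114 FPKM in Atf4AKO, in the order of the labels of each library. The difference was -1.14 on the log2 scale (limma adjusted p = 0.490). FPKM counts fragments per length of transcript and per total of the library.

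Adiponectin (Adipoq) raises insulin sensitivity, leptin (Lep) reports fat stores to the brain, and resistin (Retn) opposes insulin action in the mouse. Adipsin (Cfd) is a serine protease that starts the alternative complement pathway. Nampt makes the rate-limiting step of NAD salvage and is also secreted. C1qtnf9 encodes CTRP9, a paralogue of adiponectin with a collagen-like stretch and a C1q domain. Nrg4 is an epidermal growth factor-like ligand of ErbB receptors that brown fat secretes to act on liver and nerve, and Metrnl is a secreted meteorin-like factor known in mice from exercised muscle and cold-exposed fat. ATF4, the transcription factor removed here, acts downstream of the integrated stress response.

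C1qtnf9 lay lower in every Atf4AKO library than in any Atf4WT library, by 1.89-fold on the means, and it was the 1 gene of the 8 whose groups did not overlap. Adipoq, Retn, Cfd and Nrg4 had overlapping groups with means within 1.26-fold of each other. Lep, Nampt and Metrnl had higher means in Atf4AKO, each with overlapping groups. Their log2 differences of 0.81, 0.56 and 0.57 varied with the libraries used. With 1 library left out they ran from 0.30 to 1.17 for Lep, from 0.32 to 0.86 for Nampt and from 0.27 to 0.87 for Metrnl. None of the 8 passed the test over all genes: limma called 0 of 8 at an adjusted p of 0.05, and 1 of 8, C1qtnf9, had an unadjusted p under 0.05. Over all 12818 genes limma called 0.0156% higher and 0% lower in Atf4AKO, with 1276 at an unadjusted p under 0.05. Groups that did not overlap were found in 8.34% of all tested genes with Atf4AKO lower and in 8.21% with Atf4AKO higher, so 1 of 8 in the first direction and 0 of 8 in the second are close to the background.

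**Figure D1:**
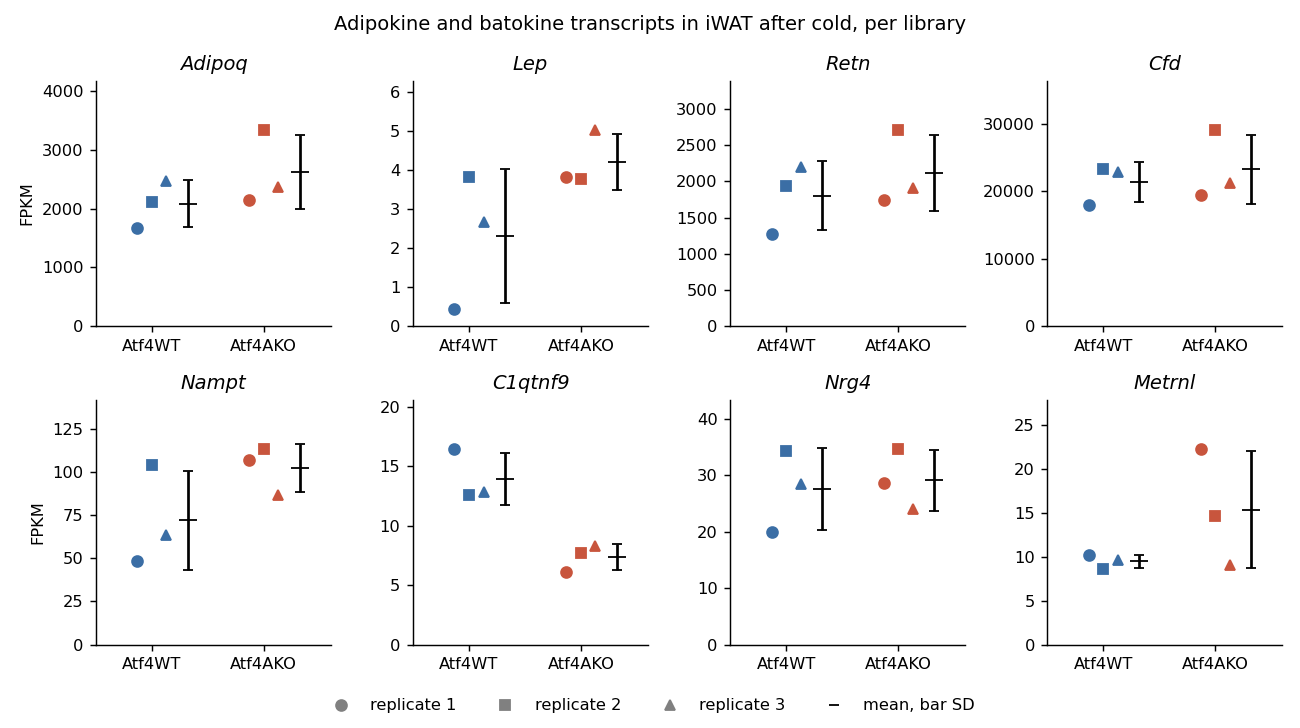
FPKM of each of the 8 genes (vertical axes from 0, each on its own scale) in the 3 Atf4WT and 3 Atf4AKO libraries, with marker shape giving the replicate number and the bar the mean ± SD of each group. C1qtnf9 is the 1 gene with separate groups, from 12.6 to 16.5 in Atf4WT and from 6.11 to 8.29 in Atf4AKO, and the circle of Atf4WT 1 is the lowest point for 6 of the 8.

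The libraries differed in what cells they held. The level of a marker list below is the mean log2 difference of its genes from their mean over the 6 libraries. Adipocyte markers, all 15 of them tested, stood at -0.37 in Atf4WT 1 and 0.32 in Atf4AKO 2, with the other 4 libraries between -0.21 and 0.10. The summed FPKM of 12 skeletal muscle markers ran from 6.75 to 831 in Atf4WT and from 5.47 to 7999.6 in Atf4AKO, where the libraries 1 and 2 were high. The summed FPKM of 10 macrophage markers ran from 236 to 573 in Atf4WT and from 469.5 to 2721 in Atf4AKO, highest in Atf4AKO 1, and 10 epithelial markers ran from 1.73 to 847.5 and from 1.66 to 133, highest in Atf4WT 1. Levels of neutrophil markers ran from -0.66 to 1.64 and of fibroblast markers from -0.72 to 1.15, both highest in Atf4AKO 1, whereas endothelial (-0.19 to 0.23), lymphocyte (-0.19 to 0.33) and mast cell markers (-0.66 to 0.83) varied less. None of these marker genes was at 0 in all libraries. In whole tissue, fewer cells of a type and less RNA per cell cannot be told apart. Relative depth, read from the steps of low values, ran from 0.933 to 1.19 of the mean, with Atf4WT 1 the deepest, and absolute depth is unknown.

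The adiponectin paralogue C1qtnf9 stood at 16.5, 12.6 and 12.8 FPKM in the controls, against 6.11, 7.74 and 8.29 FPKM with Atf4 deleted. All knockout libraries were low and the gap between the groups was wider than the range within Atf4AKO. The means were 14.0 ± 2.21 and 7.38 ± 1.13 FPKM (SD, n = 3 each). On the log2(FPKM + 1) scale the difference was -0.84 (SE 0.16, 95% interval -1.22 to -0.45), which stands for a reduction between 1.37-fold and 2.33-fold. The limma adjusted p over all genes was 0.50, with an unadjusted p of 0.0015, which ranked 19th among the tested genes, and an exact permutation test (two-sided) gave p = 0.1, its lower limit with 3 libraries against 3. C1qtnf9 ran opposite to the adipocyte markers in 1 library in particular: Atf4WT 1 had the lowest adipocyte marker level and the highest C1qtnf9.

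C1qtnf9 is listed here as an adipokine, so its level was also set against adipocyte markers. Which cells of the pad held its mRNA was not tested. Scaled to an equal adipocyte marker level in every library, C1qtnf9 was at 21.5, 11.9 and 12.0 FPKM in Atf4WT and at 7.13, 6.17 and 7.70 FPKM in Atf4AKO, a difference of -0.96 on the log2 scale (limma adjusted p = 0.824). That scaling shifted the median of all genes to -0.11. Per 1000 FPKM of Adipoq there were 9.88, 5.96 and 5.19 FPKM of C1qtnf9 in Atf4WT and 2.84, 2.32 and 3.49 in Atf4AKO, again without overlap, and this ratio was chosen after the values had been seen. The difference was -0.72 without Atf4WT 1, the library richest in epithelial markers, and -0.72 without Atf4AKO 1, the library richest in macrophage markers. It was negative under all 17 alternative settings, between -0.97 and -0.72, with limma adjusted p from 0.122 to 0.981.

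C1qtnf9 occupies chr14:60768134-60780869 on the plus strand (GRCm38, GENCODE). An antisense gene, Mipepos, overlaps it and has no row in the table used here. The library kit keeps the strand, but how strand was used in counting is not stated, so the value of C1qtnf9 may hold reads of that gene. The stretches just upstream of the RefSeq start (GRCm38.p6, 5′ to 3′) are shown for C1qtnf9, for its paralogue Adipoq and, as a contrast in base composition, for Nampt, with each CpG in capitals. They cover chr14:60767884-60768133, chr16:23146286-23146535 and chr12:32820085-32820334, all on the plus strand.
C1qtnf9: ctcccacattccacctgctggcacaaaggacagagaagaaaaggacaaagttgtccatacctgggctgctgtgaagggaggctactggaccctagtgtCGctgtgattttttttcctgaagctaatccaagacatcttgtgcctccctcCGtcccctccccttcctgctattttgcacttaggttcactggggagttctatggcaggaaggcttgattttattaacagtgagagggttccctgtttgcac
Adipoq: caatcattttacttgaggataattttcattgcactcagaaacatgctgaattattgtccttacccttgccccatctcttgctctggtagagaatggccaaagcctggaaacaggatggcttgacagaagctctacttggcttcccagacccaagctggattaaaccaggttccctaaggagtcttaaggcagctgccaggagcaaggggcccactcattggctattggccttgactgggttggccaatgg
Nampt: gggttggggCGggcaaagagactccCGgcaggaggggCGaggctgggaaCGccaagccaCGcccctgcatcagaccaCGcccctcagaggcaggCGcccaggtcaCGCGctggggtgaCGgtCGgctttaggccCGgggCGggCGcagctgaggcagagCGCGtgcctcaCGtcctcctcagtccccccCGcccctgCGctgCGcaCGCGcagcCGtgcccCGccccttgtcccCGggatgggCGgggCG
The 250 bases before C1qtnf9 hold 2 CpG, those before Adipoq 0 and those before Nampt 27, against a median of 6 over 32851 promoter windows. The promoters of Retn and Cfd also hold 2 each, whereas Nrg4 holds 10, Lep 16 and Metrnl 20. The core of the C/EBP-ATF composite element, TGATGNAA on either strand, was found in 0 of the 8 promoters, counted over 300 bases from 250 before to 50 after the start. It occurs in 3.97% of all windows of that length, so these letters are absent from these windows and nothing follows for sites elsewhere.

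Separate groups were not seen in the other members of the C1q and TNF related family. Of 9 further relatives, 7 were tested, and 5 had a positive and 2 a negative difference. Their median was 0.32 (the median over all genes was 0.00464), and 0 passed. Groups were separate in 0 of the 7, against 8.34% of all genes with Atf4AKO lower and 8.21% with Atf4AKO higher. Fam132a, the table's name for C1qtnf12 (adipolin), was the most abundant at 49.97, 68.2 and 87.0 FPKM in Atf4WT and at 46.8, 41.8 and 63.9 FPKM in Atf4AKO. Its groups overlapped (log2 difference -0.41, limma adjusted p = 0.547). C1qtnf2 was at 0.952, 0.503 and 0.680 FPKM in Atf4WT and at 2.47, 2.32 and 0.702 FPKM in Atf4AKO, so that libraries 1 and 2 of the knockout were high and the third lay with the controls. C1qtnf7 (2.76 ± 0.715 and 4.33 ± 1.66 FPKM) and C1qtnf1 (9.13 ± 1.68 and 11.8 ± 3.51 FPKM, SD, n = 3 each) were highest in Atf4AKO 1. Marker levels in that library were 1.15 for fibroblasts, 2.05 for macrophages, 1.64 for neutrophils, 0.83 for mast cells and 3.01 for skeletal muscle. Adipocyte, epithelial, endothelial and lymphocyte marker levels were negative there. The part of any of these cells in the values was not tested.

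**Figure D2:**
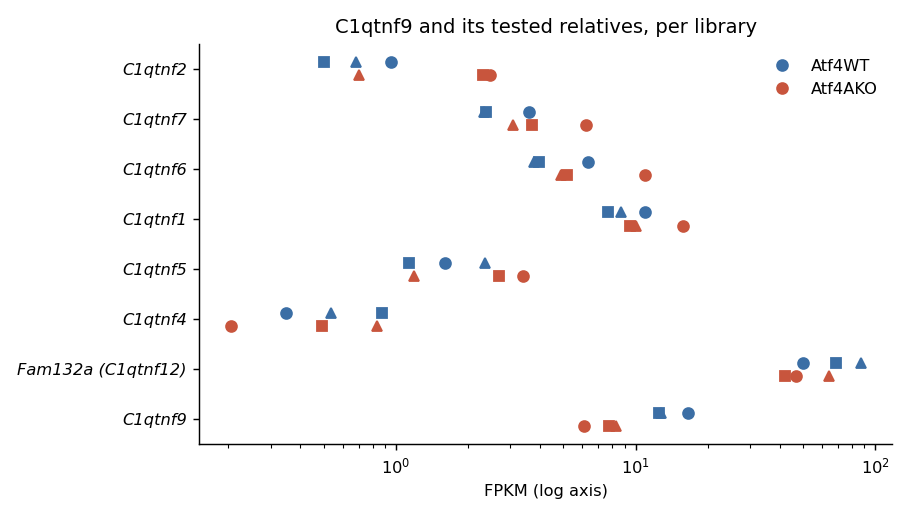
FPKM on a log axis of C1qtnf9 and its 7 tested relatives in each library (blue Atf4WT, red Atf4AKO, marker shape by replicate number). Blue and red are apart in C1qtnf9 alone, with 12.6 the lowest Atf4WT value and 8.29 the highest Atf4AKO value, and the 2 groups overlap in each of the 7 relatives.

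Adipoq, Retn and Cfd were among the most abundant transcripts of the tissue, ranking 22, 28 and 2 by mean FPKM in the table. Adipoq was at 1672, 2106 and 2472 FPKM in Atf4WT and at 2153, 3336 and 2373 FPKM in Atf4AKO. Atf4AKO 2 was the high library and Atf4WT 1 the low one, and the remaining 4 were intermixed. The log2 difference of 0.32 had a 95% interval from -0.25 to 0.89, so anything from a 1.19-fold reduction to a 1.86-fold increase is compatible with these libraries (limma adjusted p = 0.587, exact permutation p = 0.4). It was 0.14 without Atf4AKO 2 and 0.17 without Atf4WT 1.

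Retn was at 1274, 1940 and 2197 FPKM in Atf4WT and at 1736, 2710.3 and 1903 FPKM in Atf4AKO. Its libraries stood in nearly the same order as those of Adipoq, with the groups overlapping (log2 difference 0.24, 95% interval -0.42 to 0.90, limma adjusted p = 0.708, exact permutation p = 0.6). The difference of Retn was 0.00834 without Atf4WT 1 and 0.0484 without Atf4AKO 2, so it rested on these libraries. Cfd, the complement factor D gene, was the second most abundant row at 17997, 23323 and 22841 FPKM in Atf4WT and at 19502, 29123 and 21303 FPKM in Atf4AKO. Here the sign of the small difference (0.11, 95% interval -0.50 to 0.72, limma adjusted p = 0.853, exact permutation p = 0.7) depended on the scaling, being -0.0396 after rescaling to equal sums and -0.0270 at equal adipocyte marker level. After the same rescaling to adipocyte markers Adipoq was at 2179, 1995 and 2314 FPKM in Atf4WT and at 2513, 2661 and 2206 FPKM in Atf4AKO, a difference of 0.18. The low value of Atf4WT 1 and the high value of Atf4AKO 2 in the deposited FPKM thus went with the adipocyte marker level of those libraries.

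**Figure D3:**
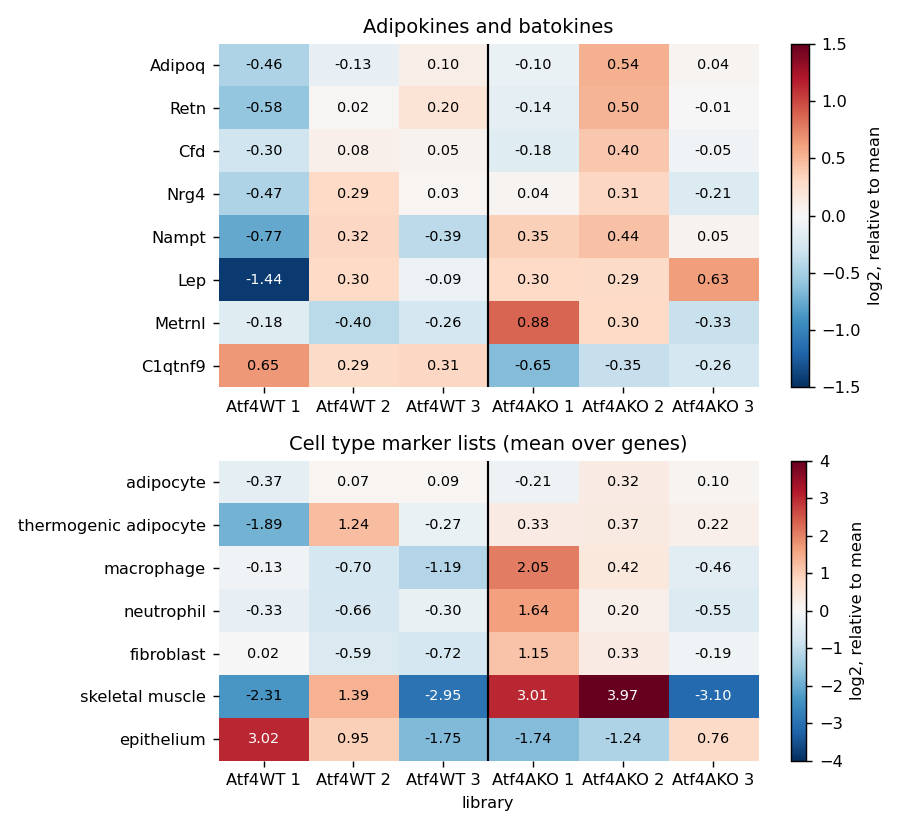
Centred log2(FPKM + 1) values (colour and printed number, 0 is the mean of the 6 libraries) of the 8 genes above, and the mean level of 7 cell type marker lists below, with libraries in columns and a line between genotypes. Adipoq, Retn and Cfd share the low Atf4WT 1 column and the high Atf4AKO 2 column with adipocyte markers. Metrnl is highest in Atf4AKO 1, as the macrophage, neutrophil and fibroblast lists are. C1qtnf9 is positive in every Atf4WT library and negative in every Atf4AKO library.

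Leptin mRNA was scarce in these cold-exposed pads. Lep was at 0.439, 3.81 and 2.67 FPKM in Atf4WT and at 3.80, 3.77 and 5.02 FPKM in Atf4AKO. Atf4WT 1 was 11.4-fold below the highest library, and Atf4WT 2 lay among the knockout libraries. The log2 difference was 0.81 (SE 0.44, 95% interval -0.23 to 1.86, limma adjusted p = 0.526, exact permutation p = 0.3), and it was 0.30 without Atf4WT 1 and 1.17 without Atf4WT 2. With a smaller pseudocount of 0.1 it was 1.24, since a gene of a few FPKM is sensitive to that choice. The ratio of Adipoq to Lep, a customary measure of fat tissue function that is usually taken on the proteins, was 3809, 553 and 926 in Atf4WT and 566, 884 and 473 in Atf4AKO. Only the first Atf4WT library lay far from the rest, and the groups overlapped. Taken on log2(FPKM + 1) values, which damp the low Lep of that library, the ratio differed by -0.49 between the groups (exact two-sided permutation p = 0.5). It differed by -0.92 with a pseudocount of 0.1 (exact permutation p = 0.3) and by -0.13 without Atf4WT 1 (exact permutation p = 0.8).

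Nampt was at 48.7, 104 and 63.6 FPKM in Atf4WT and at 107, 114 and 86.6 FPKM in Atf4AKO. The knockout libraries 1 and 2 were the highest, but Atf4WT 2 stood between them and Atf4AKO 3. The log2 difference was 0.56 (SE 0.28, 95% interval -0.12 to 1.24), with a limma adjusted p of 0.515 and an exact permutation p of 0.2. It was 0.86 without Atf4WT 2 and 0.32 without Atf4WT 1, and it was 0.32 with the muscle marker level as a covariate. Muscle marker levels were 3.01, 3.97 and 1.39 in Atf4AKO 1, Atf4AKO 2 and Atf4WT 2, the 3 libraries with the most Nampt, and between -3.10 and -2.31 in the other 3. Thermogenic adipocyte marker levels were 0.33, 0.37 and 1.24 in the same 3 libraries and between -1.89 and 0.22 in the other 3. The part of either cell type in the Nampt values was not tested.

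Of the 2 batokines, Nrg4 did not follow genotype. It was at 19.9, 34.4 and 28.4 FPKM in Atf4WT and at 28.7, 34.8 and 24.0 FPKM in Atf4AKO, and the ranges were nearly the same. The log2 difference was 0.10 (95% interval -0.45 to 0.65, limma adjusted p = 0.862, exact permutation p = 0.6), and its sign turned in 5 of the 17 alternatives. Beside it, Ucp1, the uncoupling protein of beige fat, was at 15.5, 1370.1 and 211 FPKM in Atf4WT and at 456, 497 and 415 FPKM in Atf4AKO. The level of 11 thermogenic adipocyte markers was -1.89, 1.24 and -0.27 in Atf4WT and between 0.22 and 0.37 in Atf4AKO. The lowest and the second highest Nrg4 value thus stood in the libraries with the lowest and the highest Ucp1, although Nrg4 spanned 1.75-fold in all. Elsewhere the order differed, as Atf4AKO 3 had more Ucp1 than Atf4WT 3 but less Nrg4. Nrg4 was lowest in Atf4WT 1 and highest in Atf4AKO 2, as Adipoq, Retn and Cfd were. The 3′ end of Nrg4 overlaps Fbxo22 on the opposite strand, which was at 20.2 to 22.8 FPKM in all libraries.

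Metrnl was at 10.2, 8.62 and 9.58 FPKM in Atf4WT and at 22.3, 14.7 and 9.08 FPKM in Atf4AKO. Atf4AKO 1 and 2 were above every control, and Atf4AKO 3 lay within the range of the controls. The means of 9.46 ± 0.790 and 15.4 ± 6.65 FPKM (SD, n = 3 each) gave a log2 difference of 0.57 (95% interval -0.14 to 1.27, limma adjusted p = 0.522, exact permutation p = 0.3). It was 0.27 without Atf4AKO 1 and 0.87 without Atf4AKO 3. The macrophage marker level was 2.05, 0.42 and -0.46 in Atf4AKO 1, 2 and 3 and between -1.19 and -0.13 in Atf4WT, and muscle markers were high in the first 2 of these libraries as well. With the macrophage marker level as a covariate, an alternative chosen after seeing the data, the difference was 0.01, and with the muscle marker level it was 0.35. Fibroblast and neutrophil marker levels were also highest in Atf4AKO 1, at 1.15 and 1.64. In so few libraries these marker levels and genotype cannot be told apart, and the source of the Metrnl values was not tested.

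**Figure D4:**
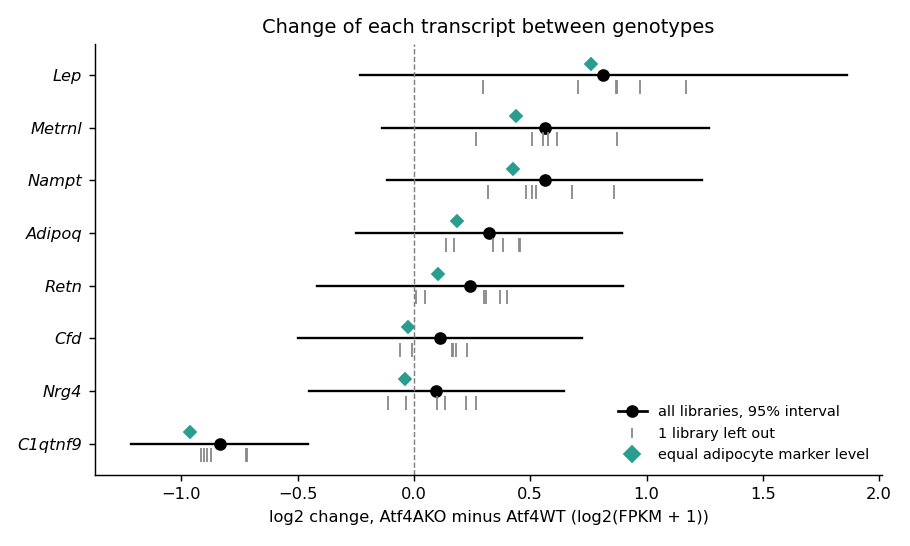
Difference of each of the 8 genes on the log2(FPKM + 1) scale (horizontal axis, Atf4AKO minus Atf4WT), with the black dot and line the value and 95% interval from all libraries, grey ticks the values with 1 library left out, and green diamonds the value at equal adipocyte marker level. The interval of C1qtnf9, from -1.22 to -0.45, is the 1 that leaves out 0, while the intervals of the other 7 span it.

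The genes differed in how near their values lay to each other across the libraries. Taking the root mean square difference of centred log2 values over the 6 libraries as the measure, Adipoq and Retn were the nearest pair at 0.09, followed by Adipoq and Cfd at 0.13 and Retn and Cfd at 0.14. Lep and C1qtnf9 were the farthest pair at 1.05. By the same measure over all tested genes, the nearest to C1qtnf9 were Lrrc36 (0.08, or 18.0% of the SD of C1qtnf9), Pex26 (0.12) and Crip2 (0.12), of which Crip2 was at 110.4, 85.1 and 77.6 FPKM in Atf4WT and at 47.1, 55.2 and 68.5 FPKM in Atf4AKO. The nearest to Adipoq were Lrrc61, Wdr92 and Gys1 (0.03 to 0.06), to Retn Slc7a10, Unc45b and Grhpr (0.05 to 0.06), and to Cfd Malat1, Cfl2 and Ptplb (0.02 to 0.04). Nrg4 lay nearest to Acad10, Mettl7b and Sugct (0.05), and Metrnl nearest to Mpp6, Ppt1 and Flrt2 (0.08 to 0.09). For Nampt they were 2810428I15Rik, Nol3 and Pdk4 (0.12), and for Lep they were Gm6484 (Angptl8), Gdf15 and Eno1 (0.22 to 0.26). All these genes share the same 6 libraries, and the measure is a description. It also depends on how much each gene varied (SD 0.22 for Cfd and 0.68 for Lep), so a small distance need not mean closer tracking.

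Receptors and binding partners showed no change past the test. Of 11 tested, 4 had a positive and 7 a negative difference with a median of -0.15, and 0 passed. Separate groups were seen in 1 with Atf4AKO higher and 0 with Atf4AKO lower, against 8.21% and 8.34% of all genes. Among adiponectin receptors, named for their role, Adipor2 was at 247, 312 and 354 FPKM in Atf4WT and at 161, 198 and 336 FPKM in Atf4AKO, and Adipor1 was at 117 ± 12.1 and 105 ± 14.6 FPKM (SD, n = 3 each). The adiponectin-binding cadherin gene Cdh13 was at 17.9 ± 1.38 and 18.1 ± 3.37 FPKM. The leptin receptor gene Lepr was at 5.35, 1.92 and 4.51 FPKM in Atf4WT and at 1.63, 1.97 and 4.04 FPKM in Atf4AKO, with wide overlap. Leprot, which shares the Lepr locus and affects trafficking of the receptor, was at 40.0, 27.1 and 24.9 FPKM in Atf4WT and at 49.9, 47.5 and 39.1 FPKM in Atf4AKO, where Atf4AKO 3 lay just below Atf4WT 1 (log2 difference 0.58, limma adjusted p = 0.50). Tlr4, a receptor reported to bind resistin, was at 3.22 ± 0.410 and 5.05 ± 1.44 FPKM with separate groups (log2 difference 0.50, limma adjusted p = 0.50), highest in macrophage-rich Atf4AKO 1.

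Receptor genes of the 2 batokines varied between libraries. Erbb3 was at 7.15, 2.48 and 0.987 FPKM in Atf4WT and at 0.588, 0.558 and 2.63 FPKM in Atf4AKO, and Kit, reported as a receptor of the meteorin-like protein in the mouse, was at 13.5, 3.11 and 1.37 and at 2.20, 1.65 and 3.89 FPKM. Both were highest in Atf4WT 1, where the epithelial marker level was 3.02, and its part in these values was not tested. Erbb4, the main receptor of Nrg4, reached at most 0.127 FPKM and was not tested. Leprotl1, a relative of Leprot, was at 8.51 ± 0.295 and 7.36 ± 0.909 FPKM (SD, n = 3 each).

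The alternative complement pathway, which Cfd starts by cleaving factor B, had positive differences in 6 of 6 tested genes with a median of 0.95, and 0 passed. Over all genes 50.6% were positive. Separate groups with Atf4AKO higher were seen in 2 of the 6, against 8.21% of all genes. Cfb, the substrate of Cfd, was at 48.2, 66.7 and 66.1 FPKM in Atf4WT and at 120.2, 112.7 and 76.8 FPKM in Atf4AKO, so all knockout libraries were higher (log2 difference 0.75, limma adjusted p = 0.50). C3 was at 259, 207 and 199 FPKM in Atf4WT and at 412, 344 and 253 FPKM in Atf4AKO, where Atf4AKO 3 fell among the controls. The anaphylatoxin receptor genes C5ar1 (6.76 ± 2.09 and 18.4 ± 11.9 FPKM) and C3ar1 (1.96 ± 0.952 and 6.99 ± 6.88 FPKM, SD, n = 3 each) were highest in Atf4AKO 1, at 32.0 and 14.9 FPKM, the library with the highest macrophage and neutrophil marker levels (2.05 and 1.64). The part of those cells in the values was not tested. Groups were separate for C5ar1 and overlapped for C3ar1.

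Of 11 tested genes of NAD synthesis and use around Nampt, 6 were positive and 5 negative with a median of 0.04, and 0 passed. Separate groups were seen in 2 with Atf4AKO higher and 1 with Atf4AKO lower, against 8.21% and 8.34% of all genes. Nmnat3, which makes NAD from the product of Nampt, was at 7.54, 9.39 and 9.58 FPKM in Atf4WT and at 10.6, 12.1 and 14.1 FPKM in Atf4AKO, without overlap (log2 difference 0.43, limma adjusted p = 0.50). The NAD-consuming enzyme gene Cd38 was at 23.2 ± 2.89 and 35.7 ± 11.4 FPKM, also without overlap and highest in Atf4AKO 1. Sirt1, an NAD-dependent deacetylase gene, was at 10.3 ± 0.263 and 8.84 ± 1.202 FPKM with the knockout lower in every library, and Nadsyn1, the NAD synthetase gene, was at 4.17 ± 0.299 and 3.28 ± 0.928 FPKM with overlap (SD, n = 3 each).

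Genes that assemble and secrete adiponectin were evenly split, 4 positive and 4 negative of 8 tested with a median of 0.03, and 0 passed. Groups were separate in 1 with Atf4AKO higher and 1 with Atf4AKO lower, against 8.21% and 8.34% of all genes. Lysyl hydroxylases, which modify collagen-like stretches such as that of adiponectin, differed in sign. Plod2 was at 5.23, 4.59 and 5.77 FPKM in Atf4WT and at 3.45, 3.95 and 3.66 FPKM in Atf4AKO, whereas Plod1 was at 25.9, 26.2 and 29.1 and at 41.4, 31.2 and 32.3 FPKM, each without overlap (log2 differences -0.40 and 0.35, limma adjusted p = 0.50 for both). Plod3 was at 13.5 ± 1.99 and 19.4 ± 4.68 FPKM and Gstk1, a chaperone-like enzyme of adiponectin multimers, at 48.4 ± 10.9 and 58.0 ± 17.6 FPKM (SD, n = 3 each), with overlap.

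Among 11 transcription factors of adipokine genes, 7 were positive and 4 negative with a median of 0.30. Separate groups were seen in 4 with Atf4AKO higher and 2 with Atf4AKO lower, against 8.21% and 8.34% of all genes, and 0 passed. Hif1a was at 15.8, 17.7 and 16.3 FPKM in Atf4WT and at 26.3, 24.2 and 21.7 FPKM in Atf4AKO (log2 difference 0.51, limma adjusted p = 0.50). Foxo1 (48.8 ± 4.596 and 70.1 ± 13.7 FPKM), Cebpb (170 ± 32.1 and 250 ± 38.9 FPKM) and the glucocorticoid receptor gene Nr3c1 (8.92 ± 0.317 and 11.3 ± 0.887 FPKM, SD, n = 3 each) also had higher values in every knockout library. Pparg, the master regulator of adipocytes and an activator of Adipoq, was at 79.5, 112 and 127 FPKM in Atf4WT and at 91.4, 98.7 and 121 FPKM in Atf4AKO, and is named for its role. Arntl, the clock factor that drives Nampt, was chosen after its values had been seen: it was at 20.2, 21.2 and 20.5 FPKM in Atf4WT, at 9.66 and 8.63 FPKM in Atf4AKO 1 and 2, and at 20.2 FPKM in Atf4AKO 3. The third knockout library lay just below the lowest control, by 20.199 against 20.210 FPKM, so the separation of these groups rests on a gap far smaller than the spread between controls. Muscle marker levels were 3.01 and 3.97 in Atf4AKO 1 and 2, and 1.39 in Atf4WT 2, which had the highest Arntl. The part of muscle in the Arntl values was not tested.

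Other secreted products of fat were mostly higher on average in Atf4AKO, and 0 passed. Of 19 tested further adipokines 15 were positive with a median of 0.36, where 50.6% of all genes were positive, and 2 had separate groups with Atf4AKO higher, against 8.21% of all genes. Angptl4, an inhibitor of lipoprotein lipase, was at 449.9 ± 78.4 and 592 ± 90.2 FPKM, the follistatin-like gene Fstl1 at 43.7 ± 9.69 and 75.6 ± 28.2 FPKM, and Ccdc3 at 8.004 ± 2.12 and 14.4 ± 5.52 FPKM (SD, n = 3 each), all with overlap. Median differences were also positive for macrophage (1.37), neutrophil (0.94), fibroblast (0.78), adipocyte (0.24) and skeletal muscle markers (3.08). Of the marker lists, only the epithelial (-1.33) and lymphocyte (-0.23) lists had negative medians. The part of these cell types in the adipokine values was not tested.

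Of 15 tested further batokines 12 were positive with a median of 0.48, 0 passed, and 5 had separate groups with Atf4AKO higher, against 8.21% of all genes. Bmp4, a ligand that promotes adipocyte commitment, was at 2.23, 3.40 and 3.42 FPKM in Atf4WT and at 4.53, 5.75 and 5.54 FPKM in Atf4AKO (log2 difference 0.65, limma adjusted p = 0.50). Gdf15, a stress-induced hormone that acts on appetite, was at 1.08, 4.65 and 4.01 FPKM in Atf4WT and at 8.92, 6.06 and 6.76 FPKM in Atf4AKO (log2 difference 1.07, limma adjusted p = 0.50). Pltp, a phospholipid transfer protein gene, was at 71.8 ± 10.6 and 104 ± 25.6 FPKM, and Il6 at 0.495 ± 0.209 and 1.06 ± 0.340 FPKM (SD, n = 3 each), both highest in Atf4AKO 1. Gdf15 and Il6 were lowest in Atf4WT 1, as 6 of the 8 genes described first were. The part of the same cell types in the batokine values was not tested either.

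**Figure D5:**
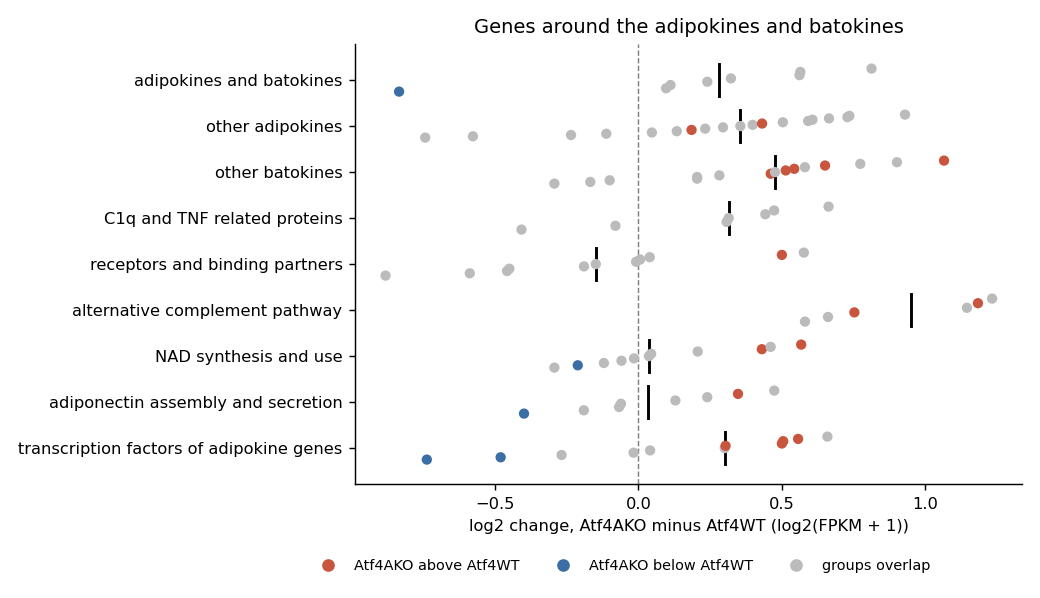
Differences of the tested genes of each list on the log2(FPKM + 1) scale (horizontal axis, Atf4AKO minus Atf4WT), 1 point per gene and 1 row per list, with a black bar at the median of each list, red and blue points for genes whose groups do not overlap and grey for those that do. The alternative complement list has the highest median at 0.95, the receptors the lowest at -0.15, and C1qtnf9 is the left-most point of the top row at -0.84.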

How the data were processed

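The authors deposited 1 table of FPKM per gene symbol and library, mapped to mm10 per the submitters' processing notes; no label names an aligner, a quantifier or an annotation. Libraries were poly(A)-selected and stranded per the labels' protocols. Since FPKM divides by library total, a few very abundant genes such as Cfd can lower all others. Column names gave the sample through its description, and titles gave the group.

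Values were analysed as log2(FPKM + 1), which understates changes of low genes, for the 12818 genes that averaged 0.5 FPKM or more. The genotypes were compared by limma (version 3.58.1, R version 4.3.3, eBayes with trend, no covariate), with Benjamini-Hochberg adjustment over all tested genes and a threshold of 0.05. No count model was used because FPKM are not counts. For the 8 genes and the ratios, exact permutation p-values (two-sided) are given as well. The procedure was tested on simulated data with planted changes larger than those of the 8 genes, so that test does not cover differences of their size. The 8 genes, the 8 gene lists and 10 marker lists were chosen with earlier results of these data known. Of each gene list the 4 tested genes of smallest p were named, along with the 3 tested genes nearest to each of the 8. One gene that this rule names is not reported here. Adipor1, Adipor2, Cdh13, Lepr, Kit, Erbb4, Pparg, Ucp1, Arntl, Spata13, Mipep and Fbxo22 fall outside that rule and were chosen with their values known. Symbols absent from the table were looked up through RefSeq synonyms, and 1 marker, Ly6g, had no row and was not used here. Of low values (under 0.15 FPKM in both libraries), between 79.4% and 82.3% lay within 0.02 (log2) of the steps expected from whole reads, which gave the relative depth. Promoter sequences are from RefSeq, GRCm38.p6, and gene positions from GENCODE on the same build. The 17 alternatives changed the pseudocount, the filter, the scaling, the model or the set of libraries.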

Additional observations from a re-analysis of the deposited data

How the results depend on the processing

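None of the 8 genes was called under any of the 17 alternatives. The differences of Adipoq, Lep, Retn, Nampt, C1qtnf9 and Metrnl kept their sign in all of them, though that of Retn was 0.00834 without Atf4WT 1 and that of Adipoq 0.14 without Atf4AKO 2. That of Cfd was -0.0396 after rescaling to equal sums and -0.0270 at equal adipocyte marker level, and ran from -0.0597 to 0.23 with 1 library left out. That of Nrg4 was -0.0495 and -0.0366 under the same 2 scalings and, with the muscle marker level as a covariate, -0.10, and ran from -0.11 to 0.27. Rescaling to equal sums shifted the median of all genes to -0.12, so small differences under it lie within that shift. Over all genes, 2 were called higher and 0 lower; the higher count was 1 with the muscle covariate, 0 with the macrophage covariate, which was added after seeing the data, and 0 to 3 with 1 library left out, and the lower count was 0 to 2. In a fit blocked on replicate number the higher count was 0 and C1qtnf9 had a limma adjusted p of 0.292. Deviations of same-numbered libraries correlated at 0.08, 0.40 and 0.07. Atf4WT 2 and Atf4WT 3 correlated best with the knockout library of their own number, but Atf4WT 1 correlated best with Atf4AKO 3 (0.19). These values are mixed and do not settle whether the numbers pair the libraries, so the main fit was not paired. The ratio of Adipoq to Lep has no value from settings of the limma model or the filter. FPKM hide the read counts, so counting error of low genes such as Lep is unknown.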

Other observations

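The following values were picked after the data had been seen. The ratio of Cfd to Adipoq, which no rescaling of a library can move, was 10.8, 11.1 and 9.24 in Atf4WT and 9.06, 8.73 and 8.98 in Atf4AKO, so all knockout libraries lay below all controls (exact two-sided permutation p = 0.1, the smallest possible here). The ratio of Retn to Adipoq was 0.762, 0.921 and 0.889 in Atf4WT and 0.806, 0.812 and 0.802 in Atf4AKO. The 3 knockout libraries were nearly equal in both ratios and the controls were spread, on either side of them in the second.

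The genes beside C1qtnf9 on chromosome 14 had differences of opposite sign. Spata13, which ends 3.58 kb before C1qtnf9 starts, was at 1.90, 1.65 and 1.72 FPKM in Atf4WT and at 1.22, 1.13 and 1.48 FPKM in Atf4AKO, a log2 difference of -0.28 without overlap (limma adjusted p = 0.504). Mipep, which starts 3.70 kb after it ends, was at 5.57, 8.13 and 7.11 FPKM in Atf4WT and at 7.88, 11.1 and 7.43 FPKM in Atf4AKO, with overlap (log2 difference 0.30, limma adjusted p = 0.559).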
